A study of Mus musculus with 5 samples.

Results

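miR-672 (mmu-miR-672 in the files) is a mouse microRNA (miRNA) of the X chromosome, and its level and the ends of its sequence tags were followed through 5 testis cell libraries. It was picked by name, with earlier results of these libraries known, and is 1 of the 593 miRNA names detected in at least 1 library. It was singled out for its level and its tag ends, so both are described here without a test. Small RNA came from C57BL/6 mouse testes, whose cells had been sorted on magnetic beads carrying a Thy1.2 antibody. Thy1 is a cell surface protein by which spermatogonial stem cells, the cells that sustain sperm production, can be enriched. There were 2 libraries of the freshly isolated Thy1+ fraction, 2 of the freshly isolated Thy1- fraction, which is depleted of stem cells, and 1 of a germ cell culture derived from Thy1+ cells and kept for about 10 passages. The titles call the Thy1- libraries enriched for somatic cells, although their cell type label repeats the stem cell name, and the titles were followed. Both fresh fractions are mixtures of cells, the labels do not say whether replicates came from separate animals, and the culture is a single library.

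miRNAs are cut from hairpins in longer transcripts, and the mature strand guides Argonaute proteins to messenger RNAs. Bases 2 to 8 of the strand, called the seed, do most of the pairing with targets. A strand that starts 1 base later therefore carries another seed, whereas changes at the 3′ end leave the seed as it is and are known to accompany trimming and tailing of miRNAs. A hairpin inside an intron is often made from the transcript of its host gene.

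The RefSeq entries for the hairpin are shown because the tags and the locus are read against them. The files name only miR-672, whose sequence equals the 5p strand of the hairpin, and miR-672-3p was not analysed here. In the mature strands the capitals mark the seed, and in the hairpin they mark the 5p strand.
miR-672-5p: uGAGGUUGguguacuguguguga
miR-672-3p: aCACACAGucacuaucuucga
miR-672 hairpin: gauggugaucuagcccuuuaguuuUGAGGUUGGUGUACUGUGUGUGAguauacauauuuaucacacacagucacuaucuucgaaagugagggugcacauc

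In GRCm38.p6 the hairpin of 100 bases lies on the minus strand of chromosome X (chrX:104116175-104116274) and miR-672-5p at chrX:104116228-104116250. In the GENCODE annotation of GRCm38 it sits in intron 1 of Nexmif (chrX:104077434-104201185, same strand), a gene known for its role in neurons, and it overlaps no exon of the 3 annotated Nexmif transcripts. The nearest RefSeq miRNA hairpin on one side is Mir374b, 543 kb away, and on the other side Mir384, 1228 kb away. Of the X-linked miRNAs known from testis, such as miR-741 and miR-880, 17 hairpins were matched in RefSeq, and they lie between 66777256 and 68010179 on the same chromosome, at least 36.1 Mb from miR-672.

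Among 1679 mature mouse miRNAs in RefSeq, 1 other has the seed of miR-672-5p, namely miR-377-5p of the imprinted region on chromosome 12, whose own level was not analysed here. let-7c-5p, of the let-7 family that is known for promoting differentiation, is shown with it because its first 8 bases equal those of miR-672-5p except for U7A, counted from the 5′ end of miR-672-5p. The capitals again mark the seed.
miR-377-5p: aGAGGUUGcccuuggugaauuc
let-7c-5p: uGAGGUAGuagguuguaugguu

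Levels were highest in the Thy1- fraction, intermediate in Thy1+ and lowest in the culture. The Thy1- libraries held 5339 and 11974 counts of miR-672, which is 2095 and 2439 counts per 1000000 miRNA counts (CPM). The Thy1+ libraries held 1095 and 1218 counts, or 1169 and 1285 CPM. The culture held 141 counts, or 27.6 CPM, with a 95% Clopper-Pearson interval of 23.2 to 32.5 CPM that covers counting error only. The 3 groups did not overlap, and the gap between any pair of them was wider than that between replicates. In bulk samples, fewer cells of a type and less miR-672 per cell cannot be told apart.

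**Figure D1:**
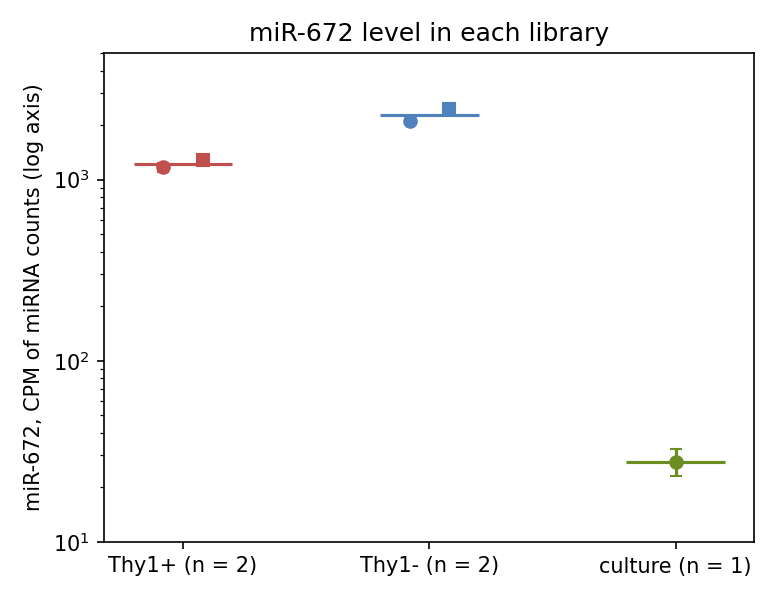
miR-672 in CPM of miRNA counts on a log axis for the 2 Thy1+, 2 Thy1- and 1 culture libraries (circles replicate 1, squares replicate 2, horizontal lines group means, error bars 95% Clopper-Pearson intervals for counting error). The fresh libraries lie between 1169 and 2439 CPM and the culture at 27.6 CPM.

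The mean was 2267 ± 243 CPM in Thy1- and 1227 ± 82.5 CPM in Thy1+ (SD, n = 2 each), so the Thy1- mean was 1.85 times the Thy1+ mean. Single Thy1- libraries stood 1.63 to 2.09 times above single Thy1+ libraries. Replicates differed by 1.10 times in Thy1+ and 1.16 times in Thy1-. The Thy1+ mean was 44.5 times the culture value, and the Thy1- mean 82.2 times. With 1 culture library, nothing shows how far cultures vary.

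The place of miR-672 among all names followed the same order. It ranked 98 and 100 in the Thy1+ libraries, 65 and 56 in the Thy1- libraries and 238 in the culture, where 1 is the most abundant name. In the fresh libraries 81.4% to 89.8% of the names with a count were below it, and in the culture 52.9% were. It made up 0.117% and 0.129% of the counts in Thy1+, 0.210% and 0.244% in Thy1- and 0.00276% in the culture. Its culture level was thus near the middle of the names detected there, whose median was 20.1 CPM.

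**Figure D2:**
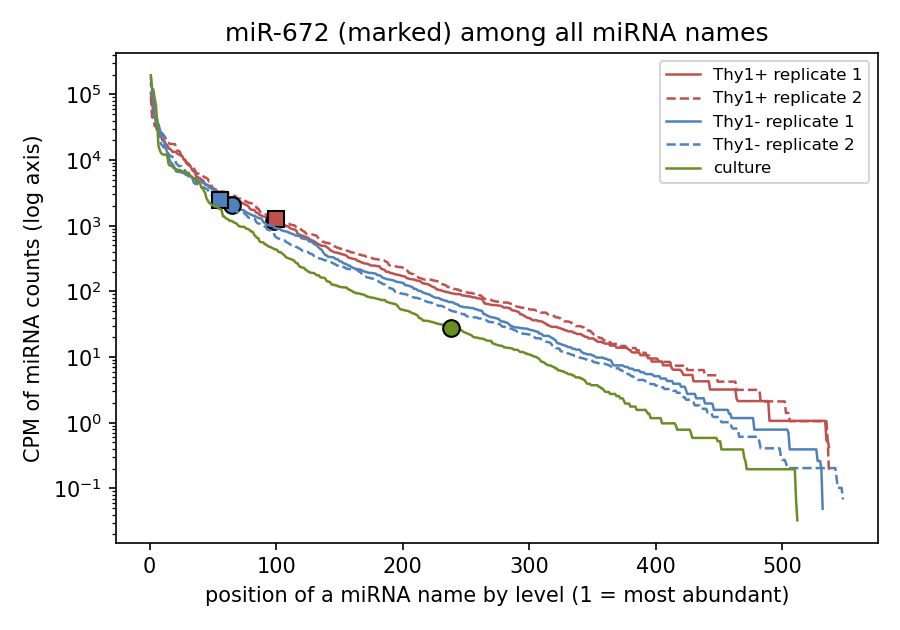
All miRNA names of each library in order of level, with CPM on a log axis and 1 line per library (dashed lines replicate 2), and miR-672 as the marked point. miR-672 sits at positions 56 to 100 in the fresh libraries and at 238 in the culture.

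CPM values are shares, and a few very abundant names can lower all others, so the differences were also taken from an edgeR fit with TMM scaling, in which they are relative to the bulk of names. miR-672 was lower in Thy1+ than in Thy1- by a log2 fold change of -1.46 (SE 0.46). The culture stood at -3.82 (SE 0.75) against Thy1+ and at -5.33 (SE 0.81) against Thy1-, and these differences share the same culture library. Counted from the lowest, these values placed miR-672 at 55 of 425 names, at 40 of 470 and at 21 of 470. The median over all names was -0.07, -0.09 and -0.15 in the 3 comparisons, and 0.51, -1.73 and -1.19 under total count scaling. Under that scaling miR-672 was at -0.89, -5.47 and -6.36, so the sign held in each.

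The edgeR calls at an adjusted p (Benjamini-Hochberg) under 0.05 covered 28.2% of the names for Thy1+ against Thy1- (20.5% higher and 7.76% lower in Thy1+), 22.3% for the culture against Thy1+ (8.94% higher and 13.4% lower in the culture) and 34.9% for the culture against Thy1- (18.1% higher and 16.8% lower). When either Thy1+ library was left out, no name was called in either comparison with Thy1+ by edgeR, while 108 to 145 names had an unadjusted p under 0.05. For the culture against Thy1-, 46 names were called without Thy1+ replicate 2, against 164 with all libraries.

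Most X-linked miRNAs of the testis list were distributed unlike miR-672. Of its 31 products, 24 were higher in both Thy1+ libraries than in both Thy1- libraries, as were 232 of all 593 names. The order of groups seen for miR-672 was found in 1 of the 31, miR-201, and in 64 of the 593 names (miR-672 included). miR-201 had 16 and 6.33 CPM in Thy1+, 33.0 and 18.3 in Thy1- and 3.72 in the culture. miR-201 is named for that order, after its values were seen. In the counts of this list miR-465a-3p, miR-465b-3p and miR-465c-3p have the same values in each library and are not separate measurements. Of 27 tested products of the group around miR-741 and miR-880, 15 rose in Thy1+ over Thy1- by edgeR, with a median log2 fold change of 1.97, whereas miR-672 was at -1.46. The 15 became 19 by DESeq2 and 23 without Thy1- replicate 1. They became 0 without either Thy1+ library, where 16 were higher at an unadjusted p under 0.05, and with replicate number as a block none passed (0 of 27, 20 higher at an unadjusted p under 0.05, median 2.03). miR-880, the most abundant, was at 46186 and 20989 CPM in Thy1+, 4286 and 4219 in Thy1- and 8749 in the culture. miR-741 was at 19048 and 26146 CPM in Thy1+, 5339 and 1990 in Thy1- and 14316 in the culture. miR-470 stood at 16814 and 25630 CPM in Thy1+, 6330 and 1802 in Thy1- and 7974 in the culture, and miR-881 at 11951 and 27051, 3422 and 2190, and 8264 CPM. For these 4 the Thy1+ libraries were above the Thy1- libraries, the reverse of miR-672.

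In the culture the same group had no product past the edgeR test against Thy1+ (0 of 29, 2 higher at an unadjusted p under 0.05, 0 by DESeq2, median 0.39), and against Thy1- 17 of 29 rose (median 2.10). The 17 became 2 without Thy1+ replicate 2, 7 without Thy1- replicate 1 and 11 without Thy1+ replicate 1. Under total count scaling 2 of the 29 fell against Thy1+, the median turned to -1.28, and 5 rose against Thy1-. Of 31 listed products, 15 were more abundant than miR-672 in each Thy1+ library, 5 and 4 in the Thy1- libraries and 20 in the culture. Whether the share of germ cells in each library took part in the miR-672 difference was not tested. The summed level of the X-linked group was 18.5% to 20.5% of counts in Thy1+, 2.68% to 3.45% in Thy1- and 8.74% in the culture. The 2 products of miR-34c, also taken as a germ cell marker, were ordered otherwise. They summed to 2.34% to 10.6% in Thy1+, 0.85% to 4.88% in Thy1- and 19.6% in the culture, and the fresh fractions overlapped.

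The let-7 list held 17 products. Of these, 9 main strands (miR-98 included) carry the let-7 seed, which equals that of miR-672 at 6 of 7 bases. The other 8 are minor strands, of which 6 could be read in full and lack that seed, and let-7a* and let-7c-2* have the same values in each library. Like miR-672, 16 of the 17 were higher in both Thy1- libraries than in both Thy1+ libraries, as were 99 of all 593 names. Of the 16, 7 also had their lowest value in the culture, and 64 of the 593 names had this order. Those 7 are let-7b and let-7c, which carry the seed, and the minor strands let-7a*, let-7c-1*, let-7c-2*, let-7d* and let-7g*. Of the 9 with the seed, 7 fell in Thy1+ against Thy1- by edgeR (median -1.77), as did 4 of the 8 minor strands (median -1.58). The 11 calls became 2 under total count scaling and 0 with replicate number as a block, where 15 had an unadjusted p under 0.05. They also became 0 without Thy1+ replicate 1 or without Thy1+ replicate 2, where 3 and 2 had an unadjusted p under 0.05. Against Thy1+ 7 of the 9 with the seed rose in the culture, where miR-672 was at -3.82, and so did 1 of the 8 minor strands, and these 8 calls became 1 under total count scaling and 0 without either Thy1+ library (6 and 4 at an unadjusted p under 0.05). Against Thy1- 1 of the 17 fell in the culture, or 3 under total count scaling. The summed let-7 level was 21.1% to 21.6% of counts in Thy1+, 42.8% to 46.3% in Thy1- and 32.5% in the culture. No tag of miR-672 was tied with another name in any library.

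Markers of other cells in the same libraries were as follows. White blood cell miRNAs (6 products of miR-223, miR-155, miR-150 and miR-142) summed to 14912 to 26552 CPM in Thy1+, 1346 to 2017 in Thy1- and 937 in the culture, where miR-150* was at 0. Most of that sum was miR-142-3p, while miR-155 was higher in the culture (92.8 CPM) than in Thy1- (9.81 and 6.72). Red blood cell miRNAs (3 products) summed to 179 to 252 CPM in Thy1+, 1344 to 1475 in Thy1- and 12.5 in the culture, the same order of groups as miR-672. The 2 products of miR-202, known from the gonads, also had that order, with 1138 to 2205 CPM in Thy1+, 3712 to 18584 in Thy1- and 173 in the culture. Mesenchymal miRNAs (9 products) reached 27471 to 38717 CPM in Thy1+, 31360 to 46813 in Thy1- and 65255 in the culture. Of that culture sum miR-143 held 37950 CPM, and miR-199a-3p and miR-199b have the same values in each library. Not every product followed the sum: miR-145 was lowest in the culture, at 234 CPM against 313 and 310 in Thy1+ and 830 and 323 in Thy1-. Every product of the red blood cell, miR-202 and mesenchymal lists had a count in each group. The part of these cells in the miR-672 differences was not tested.

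The names whose pattern over the 5 libraries was closest to that of miR-672 were taken by the root mean square difference of log2(CPM + 1) values, each centred on its own mean, among 386 other names with a mean of at least 10 CPM. The median difference over those names was 2.08. The closest was miR-429 (0.45), a member of the miR-200 family known from epithelia, followed by miR-380-5p (0.48), miR-136* (0.49), miR-127* (0.50) and miR-434-5p (0.53). The last 4 come from the imprinted Dlk1-Dio3 region on chromosome 12. The asterisk stands for the less abundant strand.

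What these names share with miR-672 is mainly the low culture value. miR-429 had 154 and 78.6 CPM in Thy1+, 206 and 235 in Thy1- and 3.33 in the culture, which is the order of groups seen for miR-672. miR-434-5p, the most abundant of the 5, had 1036 and 1312 CPM in Thy1+, 783 and 1338 in Thy1- and 14.1 in the culture. Its fresh fractions overlapped, unlike those of miR-672. miR-380-5p had 180 and 350 CPM in Thy1+, 214 and 300 in Thy1- and 2.94 in the culture. The culture held 17 counts of miR-429, 15 of miR-380-5p, 5 of miR-136* and 9 of miR-127*, so their culture values rest on few reads.

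**Figure D3:**
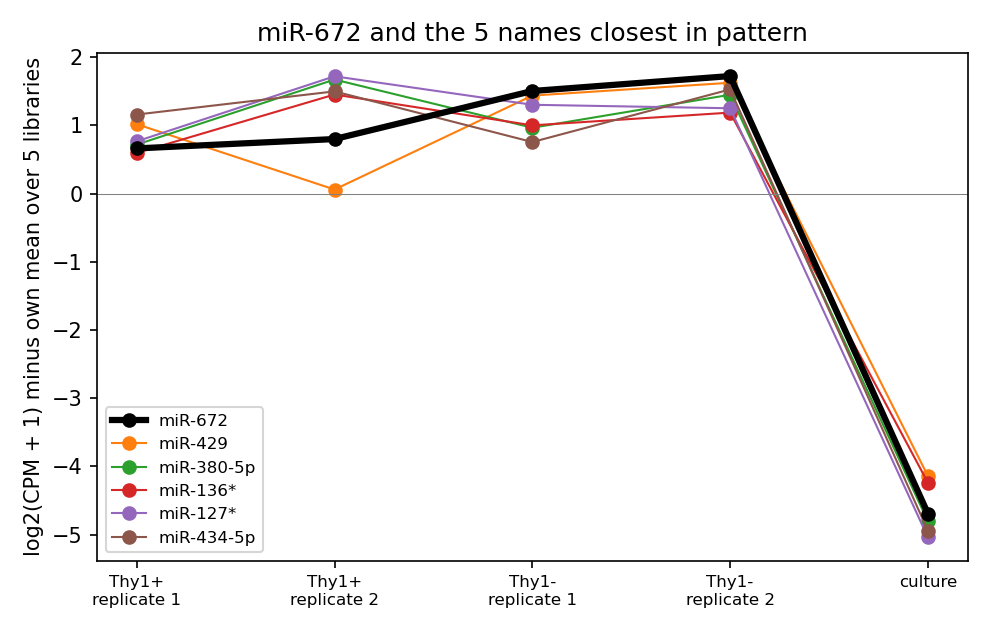
log2(CPM + 1) minus its own mean over the 5 libraries for miR-672 (thick black line) and the 5 names closest in pattern, with lines only joining values of 1 name. All 6 lie above 0 in the fresh libraries and between -5.04 and -4.14 in the culture, and miR-672 and miR-429 are higher in both Thy1- libraries than in both Thy1+ libraries.

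Of the miRNAs from the nearest hairpin on each side, only miR-374 had enough counts to compare, and it lacked the low culture value. miR-374, the name in the files that matches the 5p strands of Mir374b and Mir374c, was at 281 and 352 CPM in Thy1+, 551 and 399 in Thy1- and 395 in the culture. Both Thy1- libraries were above both Thy1+ libraries, as for miR-672, but the culture value lay within the range of the fresh libraries. Mir421, also 543 kb away on that side, was not matched to a name by sequence. The name miR-421 had 24.5 and 54.9 CPM in Thy1+, 29.8 and 39.9 in Thy1- and 19.8 in the culture, its lowest value. Its fresh fractions overlapped. On the other side, miR-384-3p had 0 to 7 counts and miR-384-5p 1 to 3 counts in any library, too few to compare.

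The tags of miR-672 were mostly the whole mature sequence. Over the 5 libraries there were 373 distinct tags and 19767 counts, and the 7 tags found in every library held 90.8% of the counts. The tags that carry the end variants are shown as the files hold them, in DNA letters, with bases unlike the mature sequence in capitals.
whole tag: tgaggttggtgtactgtgtgtga
tag without the last base: tgaggttggtgtactgtgtgtg
tag without the last 2 bases: tgaggttggtgtactgtgtgt
tag from base 2: gaggttggtgtactgtgtgtga
A23T tag: tgaggttggtgtactgtgtgtgT
T21A tag: tgaggttggtgtactgtgtgA
C14T tag: tgaggttggtgtaTtgtgtgtga

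In these names the mature base comes first, then its position from the 5′ end of miR-672, then the base in the tag. The whole tag had 14642 counts over the libraries. It made up 72.3% and 72.5% of the miR-672 counts in Thy1+, 74.5% and 74.1% in Thy1- and 78.7% in the culture. The culture interval of 71.0% to 85.2% (95% Clopper-Pearson) included all 4 fresh values, so no difference from the culture was detectable at its depth of 141 counts.

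The 5′ end hardly varied. Tags starting at base 1 held 98.7% and 98.9% of the counts in Thy1+, 99.2% and 97.9% in Thy1- and 100% in the culture. Starts at base 2, which would move the seed by 1 base, held 0.73% and 0.66% in Thy1+ and 0.62% and 1.26% in Thy1-. The Thy1- libraries thus lay on both sides of the Thy1+ libraries. In the culture there were 0 of 141 such counts, which allows a share of up to 2.13%. Starts at base 4 held 0.54% in Thy1- replicate 2 and 0.11% to 0.27% in the other fresh libraries.

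The seed that a start at base 2 would give was found in 0 of the 1679 RefSeq mature miRNAs. Start 1 was also the rule for other names: the median share over 217 to 292 names with at least 100 counts was 98.2% to 98.8% in the 5 libraries. Between 43.8% and 64.0% of those names had a lower share than miR-672 in the fresh libraries. miR-672 thus stood near the middle of the names in its 5′ end. The files hold no tag that starts before base 1 or runs past the last mature base, so longer forms were not analysed here.

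The 3′ end varied more than the 5′ end in each library. Tags that reached base 23 held 79.2% and 80.6% of the counts in Thy1+, 83.3% and 82.5% in Thy1- and 84.4% in the culture (95% interval 77.3% to 90.0%). The group means were 79.9% ± 1.02 and 82.9% ± 0.62 (SD, n = 2), and the library values of the fractions did not overlap, with the higher share in Thy1-. The 95% interval of Thy1+ replicate 2 (78.3% to 82.8%) did overlap those of both Thy1- libraries (82.3% to 84.3% and 81.8% to 83.1%). Counted as distinct tags in place of reads, the order was reversed, with 65.2% in Thy1+ and 57.7% in Thy1-. Tags lacking 1 base held 8.58% and 8.05% in Thy1+, 6.59% and 6.55% in Thy1- and 6.38% in the culture. Tags lacking 2 bases held 8.49% and 9.44%, 8.11% and 8.58%, and 7.09%. Those lacking 3 bases held 2.47% and 1.15% in Thy1+, 1.03% and 1.41% in Thy1- and 2.13% in the culture.

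**Figure D4:**
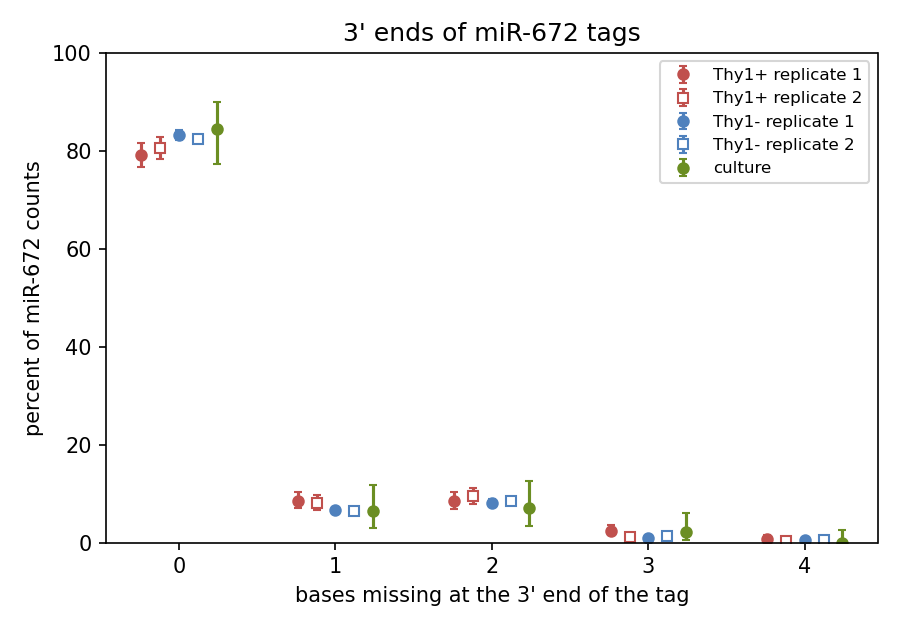
Percent of miR-672 counts by the number of bases missing at the 3′ end of the tag, for each library (filled symbols replicate 1 and culture, open squares replicate 2, error bars 95% Clopper-Pearson intervals). Between 79.2% and 84.4% of the counts reach the last mature base, and losses of 1 and of 2 bases each hold 6.38% to 9.44%.

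The culture intervals for losses of 1 base (2.96% to 11.8%) and of 2 bases (3.45% to 12.7%) included all 4 fresh values, so at 141 counts no difference from the fresh libraries was detectable. Other names ended less often at their last mature base: their median share was 71.1% and 72.8% in Thy1+, 65.7% and 64.7% in Thy1- and 72.5% in the culture. Between 60.8% and 75.7% of the names had a lower share than miR-672. The medians cover the names with at least 100 counts in each library, 217 and 233 in Thy1+ and 267 and 292 in Thy1-. These are different sets of names, so a shift of the median between the fresh fractions is not shown.

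A base other than the mature one was most frequent at the last position. A23T was the commonest substitution, with 291 counts over the libraries. It held 1.85% and 2.34% of the counts covering base 23 in Thy1+, 1.24% and 1.96% in Thy1- and 2.52% in the culture, where it rests on 3 counts. The hairpin has A at the last mature base and G after it, so a T at this place is not in the hairpin. Untemplated addition of U is known from miRNA ends, and its part here was not tested. Among other names whose mature sequence ends in A, the median share read as T was 0.89% and 1.42% in Thy1+, 1.49% and 1.34% in Thy1- and 1.60% in the culture. In each library at least 14 of the 37 to 49 such names had a share as high as that of miR-672.

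T21A, with 121 counts, was mostly the last base of 21-base tags. It held 0.57% and 0.84% of covering counts in Thy1+, 0.54% and 0.66% in Thy1- and 0 of 138 in the culture, which allows up to 2.17%. Such a tag equals 20 mature bases with an A added, and it equals as well the mature sequence with 2 neighbouring bases of its TG repeat left out. These forms cannot be told apart by the tag.

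C14T was the commonest substitution inside the sequence, with 229 counts, and it went with the library. It held 1.15% of covering counts in Thy1+ replicate 2 and 1.65% in Thy1- replicate 2, against 0.18% in Thy1+ replicate 1 and 0.26% in Thy1- replicate 1. The culture had 1.42%, which is 2 counts. Other names with a C at base 14 showed the same split between libraries, with medians of 1.09% and 0.94% in the replicates numbered 2, 0.15% and 0.20% in those numbered 1 and 0.22% in the culture. A3C, in the seed, held 1.01% in Thy1+ replicate 1 and 0.25% to 0.43% in the other fresh libraries, against medians of 0.06% to 0.31% for other names with an A at base 3 in the fresh libraries.

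**Figure D5:**
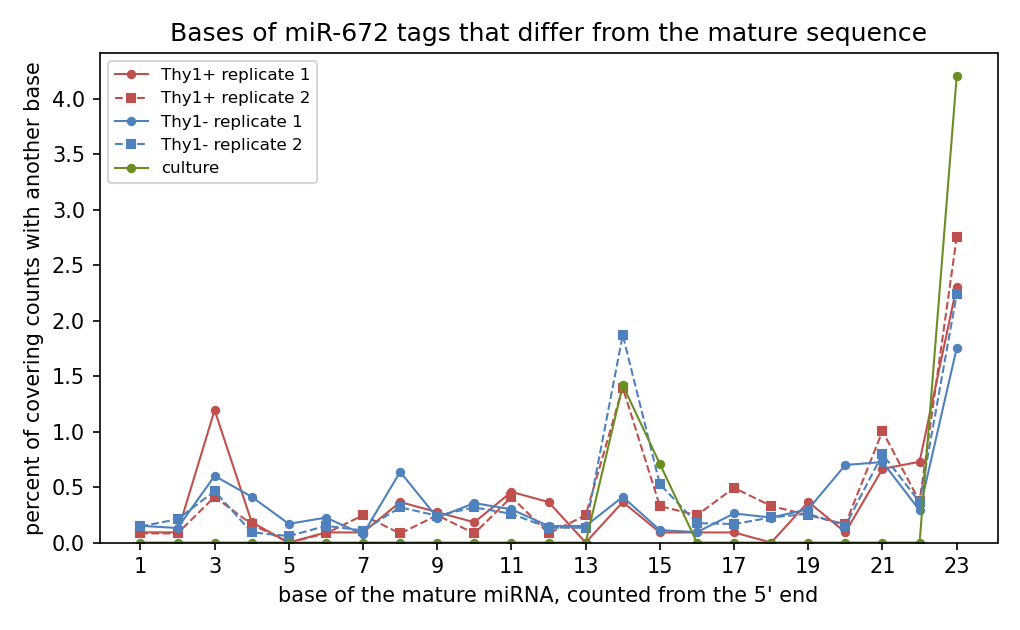
Percent of the counts covering each base of miR-672 that show another base, by position from the 5′ end, with undetermined bases left out and 1 line per library (dashed lines replicate 2). The last base has the highest share in each library, and base 14 stands out in both replicates numbered 2 and in the culture, where it rests on 2 counts.

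Tags with 1 or 2 mismatches made up 6.67% and 8.29% of the miR-672 counts in Thy1+, 7.21% and 7.62% in Thy1- and 4.96% in the culture (95% interval 2.02% to 9.96%). The fresh fractions overlapped. Tags with an undetermined base, which the files do not count as a mismatch, held 3.11% in Thy1- replicate 1 and 0.91% to 1.42% in the other libraries. The median over other names was likewise highest in that library, at 2.80%.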

How the data were processed

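The 5 small RNA libraries from mouse testis cells were grouped by their titles. The deposited files give raw read counts for each distinct tag, with the mature miRNA it was placed on, its position and up to 2 mismatches; the authors applied no normalization to these counts, per the file headers and values. Per the file names, tags of 15 to 35 bases were annotated to miRBase 12.0, while the tags present are 15 to 25 bases long. DESeq is named, with no role, per the submitters' processing notes. For adapter removal, aligner and build the tools are not given in the sources. Base 1 of a mature miRNA is position 6 in the files' other fields, which are deposited positions and not a measured level.

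Library totals, the sums of miRNA counts, were 937002 and 947687 for Thy1+, 2548234 and 4909753 for Thy1- and 5110007 for the culture. They are not whole sequencing depths. Counts of replicates differed by far more than sampling noise. A tag placed on more than 1 name (8 at most) was divided evenly among them, and the sums were then rounded. Differences came from edgeR 4.0.16 in R 4.3.3 (quasi-likelihood, TMM, filterByExpr, two-sided, threshold 0.05 after Benjamini-Hochberg over all names); SE is the absolute log2 fold change over the root of F. Thy1+ and Thy1- were fitted with the 4 fresh libraries, and the culture in a fit of all 5, where the lone library is taken to vary as the fresh ones do. P-values measure the spread between these libraries only. The edgeR fit was tested on simulated data, and the other steps were not.

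miR-672 and the lists (X-linked testis, let-7 with miR-98, and marker miRNAs) were chosen with earlier results of these data known. The miRNAs named besides it were those closest in pattern, the 4 most abundant of the X-linked list, those sharing its seed and the nearest on the chromosome. Hairpin and mature sequences are from RefSeq (GRCm38.p6), and the host gene from GENCODE for GRCm38. Alternatives were other scaling, no filter, DESeq2 1.42.0, tags without mismatches, other treatment of tied or rare tags, a replicate block and leaving out each fresh library.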

Additional observations from a re-analysis of the deposited data

How the results depend on the processing

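The log2 fold change of miR-672 was negative in all 10 alternatives of each comparison. It ranged from -1.55 to -0.89 for Thy1+ against Thy1-, from -5.47 to -3.72 for the culture against Thy1+ and from -6.36 to -5.05 for the culture against Thy1-, and in each case total count scaling (-0.89, -5.47 and -6.36) was the 1 alternative that moved it by more than its SE. Leaving out single fresh libraries gave -1.55 to -1.19, -4.20 to -3.78 and -5.76 to -5.05. The culture held 141 counts, which limits every share given for it.

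Calls over all names were less stable. They went from 120 to 32 for Thy1+ against Thy1- with replicate number as a block, and from 105 to 173 for the culture against Thy1+ under total count scaling. Leaving out a library gave 0 to 138, 0 to 128 and 46 to 135 calls in the 3 comparisons, with 0 when either Thy1+ library was left out of a comparison with Thy1+ and 68 for the culture against Thy1+ without Thy1- replicate 1. For the culture against Thy1- the count was 94 without Thy1- replicate 1. The cause was not tested. The labels give replicates a number and no other link across the fractions. The share of C14T tags went with that number, while the differences between replicates 1 and 2 of the fractions had a correlation of -0.03 over 387 names, and under the block miR-672 was at -1.44, -3.73 and -5.22.

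The Thy1+ level was 1312 CPM with tied tags left out and 1102 CPM with tied tags counted whole, since no miR-672 tag is tied and only the totals change. Single libraries gave 1169 to 1285 CPM in Thy1+ and 2095 to 2439 in Thy1-. The share of starts at base 1 in Thy1+ was 99.2% among tags with at least 2 counts and 99.0% among tags without mismatches. Counting distinct tags in place of reads, starts at base 1 were 88.5% in Thy1+ and 89.7% in Thy1-, ends at the last base 65.2% in Thy1+, 57.7% in Thy1- and 63.6% in the culture, and mismatched tags 67.3%, 76.6% and 45.5%. Among tags with at least 2 counts the mismatch share was 4.79% in Thy1+ and 6.14% in Thy1-. Single libraries gave 98.7% to 98.9% and 97.9% to 99.2% for starts at base 1, 79.2% to 80.6% and 82.5% to 83.3% for full 3′ ends and 6.67% to 8.29% and 7.21% to 7.62% for mismatches, in Thy1+ and Thy1- respectively.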
